A study of Gossypium hirsutum with 63 samples.

Results

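A set of 49 genes was expressed in flower buds of upland cotton and not, at the thresholds used, in leaf or ovule. Each of them was above 1 FPKM (fragments per kilobase of transcript and per unit of mapped fragments, a level corrected for transcript length) in all 21 flower bud libraries and below 0.2 FPKM in all 42 leaf and ovule libraries, out of 80325 genes in the table. By the same thresholds 27 genes were found in leaf only and 10 in ovule only. The set was thus chosen by its measured FPKM in the 3 tissues, so their levels by tissue are given as a description, without a test. The rule also asked for a minimum level in every bud library, which leaves out genes that are low in any library or genotype. It did not use differences among libraries or genotypes above that minimum.

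RNA sequencing was carried out on 3 tissues of 7 field-grown genotypes of Gossypium hirsutum, with 3 libraries for each. The 4 inbred parents were A (SJ48, the mother of every hybrid), B (Z98-15), C (851-2) and D (DT-8). The 3 hybrids were H (labelled SJ48x98-15, from A and B), M (SJ48x51-2, from A and C) and L (SJ48xT-8, from A and D). Leaf and flower buds were sampled at squaring, when the plant sets its buds, and ovules at 1 day post anthesis, and the study pooled buds of several sizes from several plants. A library is named below by its genotype and replicate, so that A1 is the first flower bud library of A. A pooled bud holds sepals, petals, anthers and carpels together, so more cells of a type and more RNA per cell cannot be told apart. Summed levels of photosystem, light-harvesting and Rubisco small chain genes (234 genes) spanned 12712 to 23005 FPKM in leaf libraries, 882 to 1349 in those of flower buds and 186 to 301 in those of ovule. Floral MADS-box genes (167 genes) summed to 226 to 369 FPKM in leaf, to 1067 to 1926 in buds and 1258 to 1567 in ovule. Genes described as fibre, seed coat, GLABRA or trichome genes (101 genes), which were chosen to mark the ovule, were not higher there (133 to 171 FPKM) than in flower buds (148 to 298 FPKM).

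The flower bud is where floral meristems end, organs are laid out and the anther matures. MADS-box, KNOX and WUSCHEL-related homeobox proteins are known to set organ identity and to keep dividing cells in the meristem. In the anther, the tapetum, a nurse layer around the developing pollen, makes lipids and wall polymers and exports them to the pollen surface. Later in bud growth, petals, filaments and styles extend through wall-loosening enzymes, peroxidases and plasma membrane proton pumps.

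Of the 49 genes, 34 carried a gene name in the table and 32 a description. The remaining 15 had neither and are loci of the merged transcript assembly. They make up 30.6% of the set, against 17.1% of genes without a name in the table as a whole. Of the named genes, 16 are on chromosomes of the A subgenome, 16 on chromosomes of the D subgenome and 2 on scaffolds, and 29 of the 49 genes had a single transcript. The median level in flower buds was above 20 FPKM for 6 genes, from 10 to 20 for 11, from 5 to 10 for 12 and under 5 for 20. The median over the 49 genes was 6.04 FPKM, and over all 35010 genes above 1 FPKM in every bud library it was also 6.04 FPKM. In leaf and ovule, 1444 of the 2058 values of these genes (70.2%) were listed at 0. The unnamed loci MSTRG.41904, MSTRG.44633 and MSTRG.47035 were listed at 0 in all 42 leaf and ovule libraries.

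**Figure D1:**
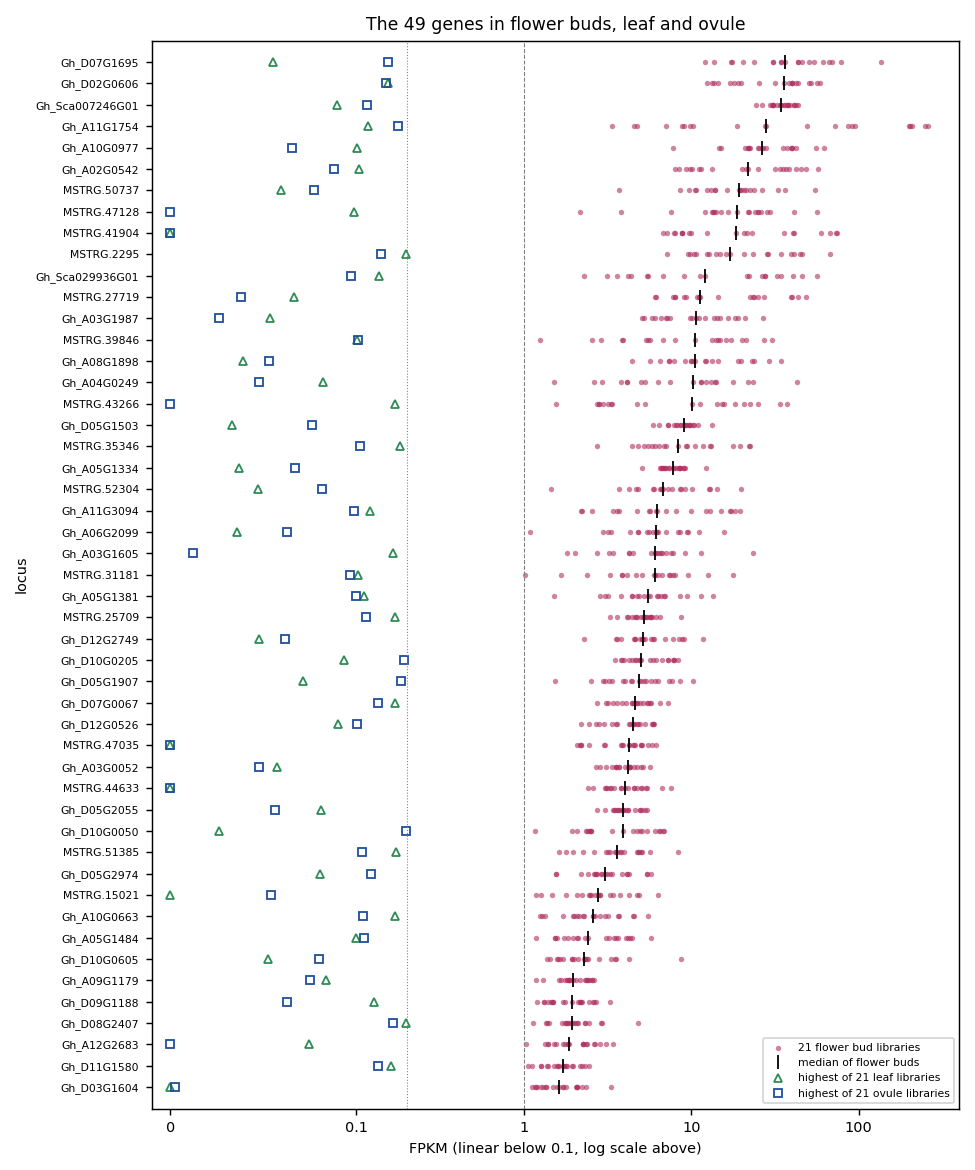
Level of each of the 49 genes (rows) in FPKM, on an axis that is linear below 0.1 and logarithmic above. Points are the 21 flower bud libraries, the bar is their median, and the triangle and square are the highest leaf and ovule library; dotted and dashed lines mark 0.2 and 1 FPKM. The medians run from 1.62 FPKM for the kinase Gh_D03G1604 to 36.5 FPKM for the lipase Gh_D07G1695, and the points of SKU5 similar 16 (Gh_A11G1754) spread most widely.

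The thresholds cut through a continuous range. Just inside the bud threshold, the lowest bud library was at 1.02 FPKM for the unnamed MSTRG.31181, 1.03 for a glycosyl hydrolase 9B15 gene (Gh_A12G2683) and 1.06 for an early-responsive to dehydration family gene (Gh_D11G1580). Just outside it were a nodulin MtN21-like transporter (Gh_D12G2155, 0.979 FPKM), a GDSL-like lipase (Gh_A07G1642, 0.979) and hexokinase-like 3 (Gh_A11G0457, 0.966). At the leaf and ovule threshold, a terpenoid cyclase family gene (Gh_D10G0050) reached 0.198 FPKM, MSTRG.2295 0.198 and the PEBP family gene Gh_D08G2407 0.197. Just outside it were KNOTTED1-like homeobox gene 6 (Gh_D05G3025, 0.201 FPKM), a copy of NOD26-like intrinsic protein 7;1 (Gh_D09G2063, 0.201) and a K-box MADS gene (Gh_D04G1891, 0.201). In all, 9193 genes stayed below 0.2 FPKM in every leaf and ovule library. Of these, 1412 passed 1 FPKM in at least 1 flower bud library and 49 in all of them.

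The general transcription factor list held 7 of the 49 genes, out of 3183 genes of that list in the table (0.220%), where the set is 0.0610% of all genes. The 7 include a MADS-box gene, which is also the 1 gene of the set in the floral organ identity list (1 of 178, 0.562%). Transcription factor activity was the GO term of 6 of the 32 genes with any GO term (7.30% of annotated genes in the table carry it). A K-box MADS-box gene (Gh_Sca007246G01), of the family whose members specify floral organs, was the most abundant regulator and the steadiest gene of the set. Its level ran from 24.5 FPKM in A1 through a median of 34.5 to 43.3 in B3, a coefficient of variation (CV) of 14.7%. The genotype means lay between 31.3 FPKM ± 4.87 in D and 39.5 FPKM ± 4.54 in B (SD, n = 3 each).

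The homeobox-3 pair, Gh_D05G1503 and Gh_A05G1334, was almost as steady. In Arabidopsis, homeobox-3 is a WUSCHEL-related gene that sustains growth of the meristem. Gh_D05G1503 was at 10.4, 8.14 and 10.97 FPKM in A, 9.82, 9.11 and 8.27 FPKM in B, 5.9, 7.27 and 6.38 FPKM in C, 7.22, 9.68 and 8.996 FPKM in D, 8.55, 9.83 and 7.91 FPKM in H, 9.33, 9.14 and 9.41 FPKM in M, and 10.3, 13.3 and 8.65 FPKM in L. All 3 libraries of C lay below every library of A, B, H, M and L, and 1 library of D (7.22) lay below the highest of C (7.27). Gh_A05G1334 ran from 5.09 FPKM in C1 through a median of 7.74 to 12.3 in L2, with C again lowest by mean (6.22 FPKM ± 1.02, against 8.23 ± 0.755 in A, SD, n = 3). Neither difference from A passed the test across genes. The log2 difference of C from A was -0.52 (SE 0.14, adjusted p = 0.129) for Gh_D05G1503 and -0.36 (SE 0.15, adjusted p = 0.447) for Gh_A05G1334, by limma on log2(FPKM + 1) with Benjamini-Hochberg adjustment over 63805 genes. A further pair described as homeobox-3, Gh_A10G0270 and Gh_D10G0270, had bud medians of 2.46 and 1.72 FPKM and passed 0.2 FPKM in leaf and ovule (up to 0.5002 and 1.065 FPKM).

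KNOX homeobox genes, which keep shoot and floral meristem cells undifferentiated, were represented by Gh_D05G2055 (described as KNOTTED-like) and Gh_A05G1484 (KNOX/ELK). Gh_D05G2055 ran from 2.75 FPKM in D2 through a median of 3.91 to 5.43 in L1 (CV 18.0%), and Gh_A05G1484 from 1.19 in C3 through 2.42 to 5.72 in L1 (CV 43.0%). Of the 6 genes described as KNOX/ELK, all stayed below 0.2 FPKM in leaf and ovule, and Gh_A05G1484 was the member above 1 FPKM in all bud libraries. Its copy Gh_D05G1655 was above 1 FPKM in 15 of 21. The remaining regulators were a NAC domain 2 gene (Gh_A05G1381, bud median 5.53 FPKM), an Integrase-type DNA-binding protein, the family that holds the AP2/ERF factors (Gh_A10G0663, 2.57), and a bZIP factor (Gh_D09G1188, 1.93). A PEBP family gene (Gh_D08G2407, 1.93), of the family that includes the flowering signal FT and its antagonist TFL1, was close to both thresholds. It was at 2.02, 4.84 and 1.97 FPKM in L, and the highest library of the 21 was L2.

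Cell wall and secreted proteins included 3 of the 10 most abundant genes. Class III peroxidases, which cross-link or loosen wall polymers, were Gh_D02G0606 (median 35.9 FPKM, range 12.5 to 59.1), Gh_A02G0542 (21.9, 8.03 to 57.1) and Gh_D10G0605 (2.28, 1.38 to 8.74). Peroxidase activity was the GO term of 3 of 32 annotated genes, against 0.461% of annotated genes in the table. Gh_A02G0542 was at 38.4, 8.03 and 9.3 FPKM in A, 42.3, 20 and 25.2 FPKM in B, 45.05, 11.4 and 11.1 FPKM in C, 57.1, 9.87 and 31.8 FPKM in D, 36.9, 21.9 and 35.6 FPKM in H, 21.1, 8.49 and 10.1 FPKM in M, and 48.2, 33.9 and 13.4 FPKM in L. In A, C, D and L the highest library was the first, and it stood at 3 or more times the lowest of the same genotype. For Gh_D02G0606 the first library was the highest in A, B, C, D, M and L, with 42.1, 12.5 and 13.6 FPKM in A and 51.9, 18.02 and 19.8 FPKM in C.

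SKU5 similar 16 (Gh_A11G1754), of the multicopper oxidase-like family named after the Arabidopsis root growth gene SKU5, varied more than any other gene of the set. It was at 72.3, 3.35 and 4.72 FPKM in A, 201, 18.7 and 27.6 FPKM in B, 209, 9.11 and 4.56 FPKM in C, 203, 9.8 and 91.1 FPKM in D, 28.2, 86.9 and 249 FPKM in H, 95.6, 10.3 and 8.86 FPKM in M, and 259.8, 49.3 and 7.04 FPKM in L. The range was 77.6-fold and the CV 114%, and the libraries of 1 genotype spanned most of the range, as in C. The copy with the same description on the D subgenome, Gh_D11G1913, had a bud median of 37.8 FPKM (5.42 to 292) and missed the rule in ovule, where it reached 0.239 FPKM. Copies that are nearly identical can share reads, so the levels of such pairs are uncertain. Both genes described as glycosyl hydrolase 9B15, of the family 9 endoglucanases that cut cellulose, were in the set. Gh_D12G2749 had a median of 5.13 FPKM (2.30 to 11.7) and Gh_A12G2683 a median of 1.87 (1.03 to 3.41). Serine carboxypeptidase-like 31 (Gh_D10G0205) had a median of 5.02 FPKM (3.50 to 8.31), and its copy Gh_A10G0226, at 12.4, passed 0.2 FPKM in leaf and ovule.

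Lipid genes were led by the most abundant gene of the set, Gh_D07G1695, described as Myzus persicae-induced lipase 1, a lipase known in Arabidopsis for its part in aphid resistance. It was at 34.5, 13.6 and 17.6 FPKM in A, 54.3, 45.8 and 78.9 FPKM in B, 60.9, 20.4 and 17.3 FPKM in C, 12.1, 23.8 and 66.6 FPKM in D, 43.4, 135 and 50.4 FPKM in H, 68.9, 34.6 and 30.8 FPKM in M, and 30.9, 43.6 and 36.5 FPKM in L. H2 was the highest library and D1 the lowest, an 11.2-fold range, and all libraries of B lay above all of A and L, and all of H above all of A. The gene Gh_D07G1696, with the same description, had a bud median of 23.1 FPKM, stayed below 0.2 FPKM in leaf and ovule and missed the rule at its lowest bud library (0.460 FPKM). Caleosins bind calcium on lipid droplets, and the caleosin-related Gh_A10G0977 was at 14.7, 20.9 and 25.2 FPKM in A, 40.3, 26.7 and 35.6 FPKM in B, 40.2, 21.7 and 22.2 FPKM in C, 7.77, 25.5 and 42.4 FPKM in D, 21.8, 62.4 and 37.5 FPKM in H, 55.8, 28.1 and 26.8 FPKM in M, and 22.5, 14.99 and 39.5 FPKM in L. It spanned 8.03-fold, and within D alone it ran from 7.77 to 42.4 FPKM. The esterase/lipase Gh_A08G1898 had a median of 10.6 FPKM (4.45 to 34.2), and the enoyl-CoA hydratase/isomerase family gene Gh_D07G0067 4.64 (2.74 to 7.22). The lipid-transfer family gene Gh_A03G1987 (median 10.7 FPKM) is described with the genotypes.

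Transport genes were led by NOD26-like intrinsic protein 7;1 (Gh_Sca029936G01), a channel of the aquaporin family that in Arabidopsis is anther-specific and passes boric acid. It was at 22.1, 3.14 and 2.28 FPKM in A, 40.7, 9.06 and 12.2 FPKM in B, 45.9, 4.34 and 3.6 FPKM in C, 56.2, 4.17 and 21.7 FPKM in D, 11.3, 27.8 and 34.4 FPKM in H, 27.5, 6.81 and 5.53 FPKM in M, and 32.6, 26.3 and 5.42 FPKM in L, a 24.6-fold range. The first library was the highest in A, B, C, D, M and L but not in H, where H1 was the lowest. The other 3 genes of this description were also bud genes. Gh_A09G0535 (bud median 28.3 FPKM, up to 316), Gh_D09G2063 (21.1, up to 73.5) and Gh_D09G0532 (16.5, up to 501) each passed 0.2 FPKM in at least 1 leaf or ovule library. H(+)-ATPase 8 (Gh_A06G2099), a plasma membrane proton pump, had a median of 6.13 FPKM and ran from 1.09 in D1 to 15.8 in H2. A major facilitator superfamily gene (Gh_D05G1907, 4.84 FPKM) and a MATE efflux gene (Gh_D12G0526, 4.48) completed the transporters. An early-responsive to dehydration gene (Gh_D11G1580, 1.72) was above 0 FPKM in every leaf and ovule library.

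Specialised metabolism was represented by monooxygenase 1 (Gh_A11G3094, median 6.27 FPKM), a terpenoid cyclase family gene (Gh_D10G0050, 3.90), terpene synthase 02 (Gh_D05G2974, 3.04) and a cytochrome P450 gene (Gh_A09G1179, 1.96). The cytochrome P450 list held 1 of the 49 genes out of 611 (0.164%). Protein kinases were Gh_A03G0052 (4.21 FPKM, CV 18.6%) and Gh_D03G1604 (1.62), 2 genes of a list of 4013 (0.0498%). Named genes without a description were Gh_A04G0249 (10.2) and Gh_A03G1605 (6.08). The most abundant unnamed loci were MSTRG.50737 (19.2), MSTRG.47128 (18.9), MSTRG.41904 (18.5) and MSTRG.2295 (17.0), all among the 10 highest medians of the set.

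Genes of the set were looked for in lists for pollen wall, tapetum, pollen and meiosis functions, which were found by words in the descriptions. These lists also hold genes of other functions. Examples are postsynaptic, synaptobrevin and synaptotagmin genes in the meiosis list. The exine list holds many genes described only as ABC-2 type transporter family. None of the 102 genes of the sporopollenin and exine list, the 20 of the tapetum and anther list, the 63 of the pollen list or the 64 of the meiosis list met the rule, where 0.0610% of all genes in the table did, so that lists of this size would hold few or none at that share. Of these lists, 12, 1, 9 and 9 genes stayed below 0.2 FPKM in every leaf and ovule library. Examples of exine genes with high bud levels are the male sterility reductase Gh_A09G1215, which makes fatty alcohols for the pollen wall, and the cytochrome P450 gene Gh_A12G1014, of a family that hydroxylates fatty acids for it. Gh_A09G1215 ran from 3.88 to 1375 FPKM in flower buds and reached 4.61 FPKM in leaf or ovule. Gh_A12G1014 ran from 1.47 to 766 FPKM in flower buds and reached 1.20 FPKM in leaf or ovule.

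The spread of the set among bud libraries ranged from steady genes such as the MADS-box gene to SKU5 similar 16. The median SD on the log2(FPKM + 1) scale was 0.52 over the 49 genes, 0.26 over all 63805 genes tested and 0.22 over the 35010 genes above 1 FPKM in all bud libraries. The CV was under 25% for 9 genes, from 25 to 50% for 21 and 50% or more for 19, and 13 genes spanned over 10-fold. The share of variance between genotypes had a median of 35.2% over the 49 genes and 33.9% over all genes tested. Over the 35010 genes above 1 FPKM in all bud libraries it was 38.4%. The share is not corrected for the number of genotypes, so with 3 libraries in each a part of it arises without any genotype difference. Library H2 held the highest value of 11 genes and library D1 the lowest of 13. The shares of all tested genes with these extremes were not computed, so the counts describe the set alone.

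Libraries of 1 genotype differed along a common direction. The first principal component of the tested genes outside the set carried 23.1% of the variance among the 21 bud libraries, and ran from -82.9 in C2 to 87.8 in A1. Pearson correlation with this component was above 0.5 for 15 of the 49 genes, where 6.53% of all genes tested were so, and for 14 of these it was also above 0.5 after genotype means were removed. It was below -0.5 for 8 genes, where 13% of all genes were so, and these 8 kept it within genotypes. The other 26 genes lay between. The count of 8 is near the share of all genes and is not read as a trait of the set. Without the 2 libraries farthest from the component's median, r was -0.28 for the MADS-box gene, -0.38 for Gh_A12G2683 and -0.45 for Gh_D12G0526. It stayed below -0.5 for the rest of the 8. These correlations describe 21 libraries that share genotypes and pooled buds, and no p-value is given.

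The peroxidase Gh_A02G0542 had the highest correlation (r = 0.93, Spearman rho = 0.89, and r = 0.92 without the 2 farthest libraries). NOD26-like intrinsic protein 7;1 followed (r = 0.90, rho = 0.85, and 0.90 without these libraries), then the peroxidase Gh_D02G0606 (r = 0.88), MSTRG.41904 (0.88), MSTRG.39846 (0.88) and SKU5 similar 16 (0.87). Both KNOX genes were in this group (0.83 for Gh_A05G1484 and 0.77 for Gh_D05G2055), with monooxygenase 1 (0.72) and serine carboxypeptidase-like 31 (0.73). MSTRG.41904 was at 74.8, 7.98 and 8.76 FPKM in A and 67.8, 9.69 and 7.14 FPKM in C, while A1 and C1 lay at 87.8 and 80.0 on the component and the other libraries of A and C between -82.9 and -54.4. At the opposite end was glycosyl hydrolase 9B15 Gh_D12G2749 (r = -0.84, rho = -0.86, and -0.80 without these libraries). It was at 2.3, 6.93 and 8.5 FPKM in A, 5.13, 5.33 and 5.72 FPKM in B, 3.79, 8.84 and 7.8 FPKM in C, 3.62, 11.7 and 5.11 FPKM in D, 4.63, 3.54 and 4.6 FPKM in H, 5.98, 5.09 and 5.89 FPKM in M, and 4.57, 4.94 and 9.003 FPKM in L, with A1, H2, D1 and C1 the lowest 4 libraries. The terpenoid cyclase gene Gh_D10G0050 (-0.80), the enoyl-CoA hydratase gene Gh_D07G0067 (-0.80) and the AP2/ERF family gene Gh_A10G0663 (-0.74) were in the same group.

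**Figure D2:**
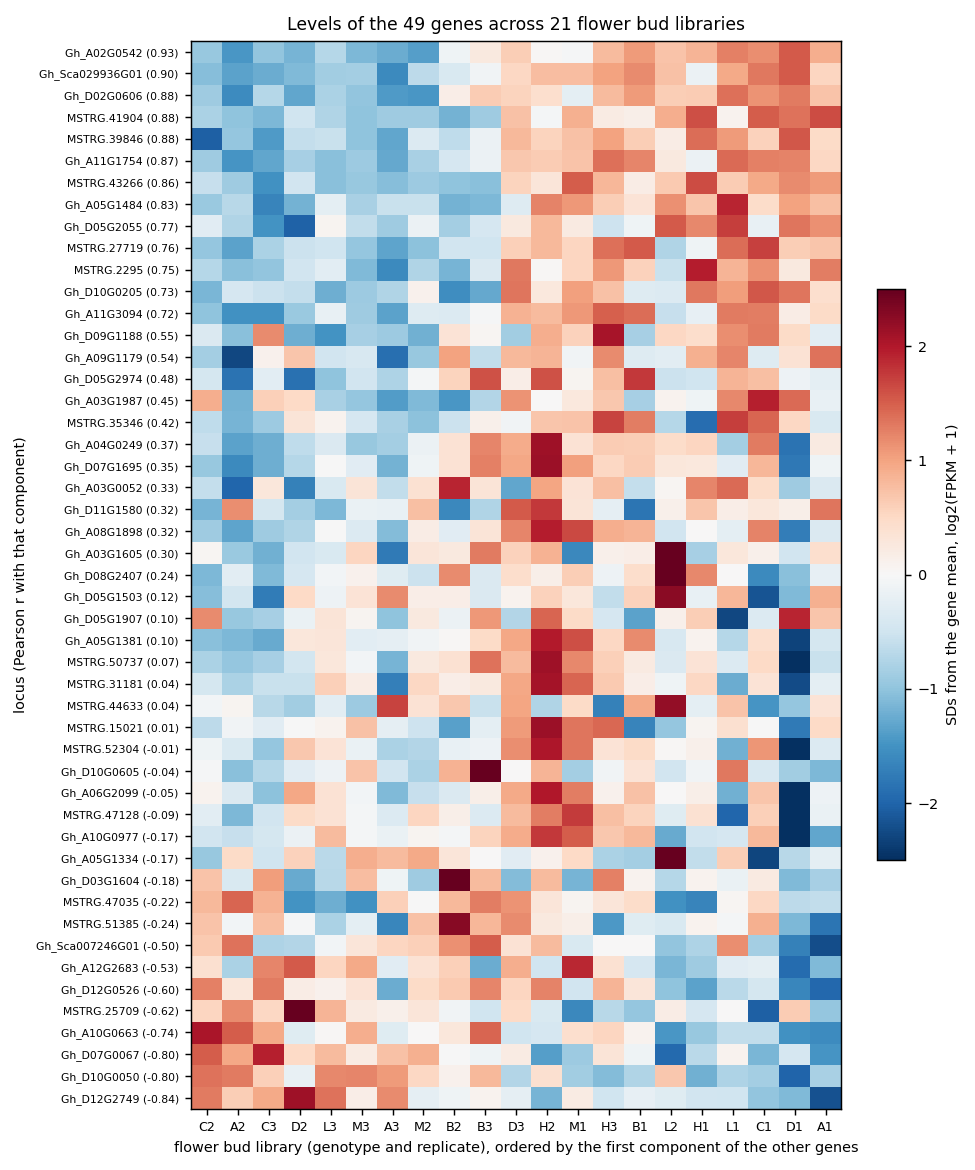
Levels of the 49 genes (rows) in the 21 flower bud libraries (columns), as SDs from each gene's mean of log2(FPKM + 1). Columns are ordered by the first principal component of the other genes and rows by their Pearson r with it, given in parentheses. The upper 15 rows (r above 0.5) are high in the libraries on the right and the lowest 8 rows (r below -0.5) in those on the left, and the middle rows show the high values of H2 and M1 and the low values of D1.

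Summed levels of the anther gene lists, taken outside the set, were high in many of the same libraries. The sporopollenin and exine list summed to 499 FPKM in C3 and 6714 in A1, and the tapetum and anther list to 53.6 FPKM in B3 and 2507 in A1. The tapetum list summed to between 565 and 2507 FPKM in A1, B1, C1, D1, D3, H1, H3, M1, L1 and L2 and to at most 139 FPKM in the others. These sums share genes, as the male sterility reductases Gh_A09G1215 (up to 1375 FPKM) and Gh_D09G1221 (up to 1194.5) are in both lists. Medians over the tested genes moved less. They ran from 2.41 FPKM in H2 to 3.81 in L3 for the tapetum list, and from 1.41 in B3 to 3.11 in H1 for the exine list. Of the tested genes of the lists, 21 of 76 exine genes and 4 of 18 tapetum genes had r above 0.5 with the component, and 14 and 4 had r below -0.5. None of the tested genes of either list was at 0 in all leaf and ovule libraries. TAPETUM 1 (Gh_D01G1347) ran from 0.0869 to 285 FPKM among the bud libraries. The word-matched meiosis list, with its genes of other functions, summed to 266 to 348 FPKM and the word-matched pollen list to 287 to 494 FPKM. Total FPKM per library ran from 413789 to 454309. The part of anther gene content in the variation of the 49 genes was not tested.

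**Figure D3:**
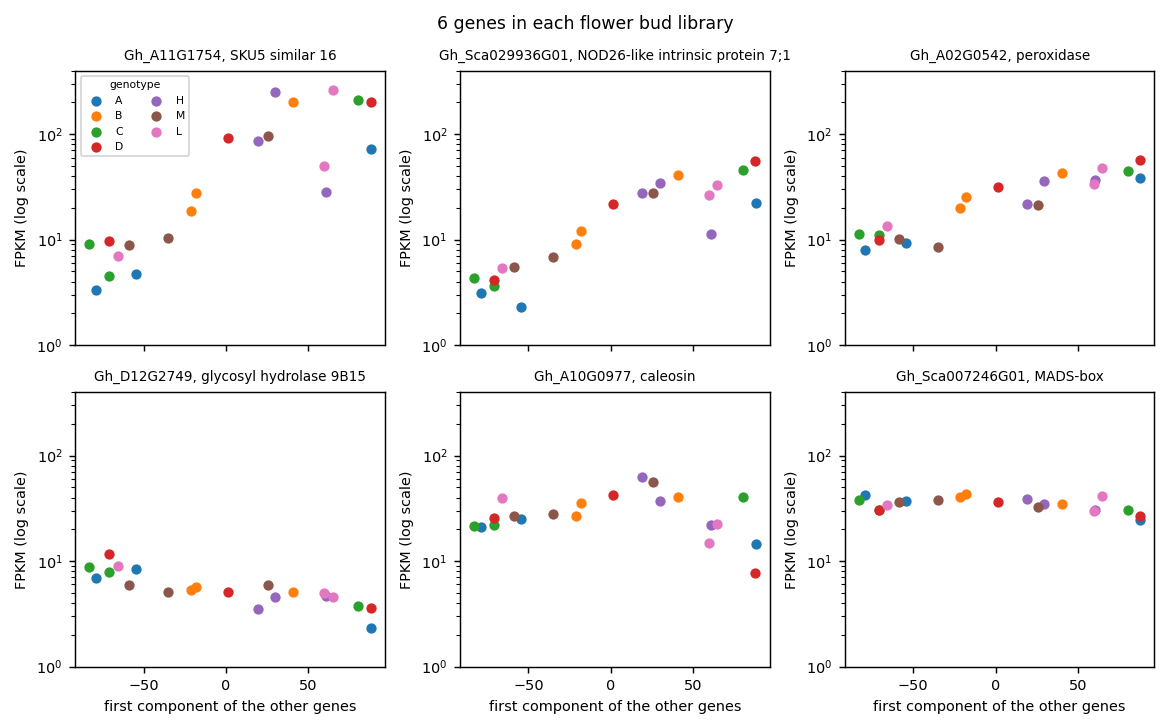
FPKM (log axis) of 6 of the genes in each of the 21 flower bud libraries against the first principal component of the genes outside the set, coloured by genotype. SKU5 similar 16, NOD26-like intrinsic protein 7;1 and the peroxidase Gh_A02G0542 are high where the component is high (r = 0.87, 0.90 and 0.93), glycosyl hydrolase 9B15 is low there (r = -0.84), and the caleosin and MADS-box genes follow it less closely (r = -0.17 and -0.50).

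Another group of genes varied together, with r of -0.17 to 0.35 with this component. It was noticed after the values were seen, around the caleosin gene Gh_A10G0977 (r = -0.17 with the component), and is given without a test. Without the 2 farthest libraries, r with the component was 0.63 for the lipase Gh_D07G1695, 0.61 for the esterase/lipase Gh_A08G1898, 0.45 for MSTRG.50737 and 0.43 for the NAC gene Gh_A05G1381, and between 0.18 and 0.33 for the other genes named next. The NAC gene Gh_A05G1381 (r = 0.90 with the caleosin gene), MSTRG.50737 (0.87), the esterase/lipase Gh_A08G1898 (0.85), MSTRG.52304 (0.83) and MSTRG.47128 (0.80) exceeded 0.8. H(+)-ATPase 8 (0.80), MSTRG.31181 (0.80) and the lipase Gh_D07G1695 (0.75) exceeded 0.7, which makes 8 of the 48 other genes. The share of all tested genes with such r was not computed, so the group is not read as particular to the set. After genotype means were removed, r with the caleosin gene was 0.91 for the NAC gene, 0.82 for the esterase/lipase and 0.69 for the lipase. The NAC gene was at 1.51, 6.22 and 8.56 FPKM in D, 5.68, 13.5 and 6.93 FPKM in H and 11.4, 5.2 and 4.76 FPKM in M. MSTRG.47128 was at 2.18, 23.9 and 29.6 FPKM in D, 22.1, 41.2 and 28.5 FPKM in H and 56.7, 24.9 and 16.5 FPKM in M. D1 was low and M1 or H2 high in both, as for the caleosin gene.

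Differences among genotypes did not reach the adjusted threshold for any gene of the set. In the limma F-test across the 7 genotypes, 0 of the 49 genes passed, where 3.3% of all tested genes did (2108 of 63805), as did 3.48% of the 35010 genes above 1 FPKM in every bud library. The minimum level in every bud library leaves out genes that are off in a genotype, so these counts are read as a description. At an unadjusted p under 0.05, 4 genes passed, where 15.6% of all tested genes did. They were the lipid-transfer family gene Gh_A03G1987, homeobox-3 Gh_D05G1503 and both kinases. Among the lists, 48 of the 2372 tested genes of the general transcription factor list, 62 of 2845 kinase genes and 2 of 127 lipid-transfer genes passed at the adjusted threshold, none of them of the set.

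The lipid-transfer gene Gh_A03G1987 came nearest. Proteins of this family carry lipids outside the cell, and some are made in the tapetum. It was at 9.77, 5.87 and 5.24 FPKM in A, 7.06, 5.07 and 7.42 FPKM in B, 26.8, 16.5 and 14.3 FPKM in C, 21.1, 13.6 and 18.3 FPKM in D, 10.1, 10.7 and 14.8 FPKM in H, 12.1, 6.09 and 6.58 FPKM in M, and 19.04, 11.2 and 7.12 FPKM in L. All 3 libraries of C and of D lay above all 3 of A and of B. So did the 3 of H, the hybrid of A and B, though H was not called against either parent. Libraries of the hybrids M and L spread between or across their parents. The F-test gave an adjusted p of 0.0559. C exceeded A by 1.34 on the log2 scale (SE 0.33, adjusted p = 0.0826), D exceeded A by 1.25 (SE 0.33, adjusted p = 0.0982), and M lay at -1.13 from C (SE 0.33, adjusted p = 0.126). The mean was 6.96 FPKM ± 2.45 in A, 6.52 ± 1.27 in B, 19.2 ± 6.66 in C, 17.7 ± 3.76 in D, 11.9 ± 2.59 in H, 8.26 ± 3.35 in M and 12.4 ± 6.06 in L (SD, n = 3). Over the 26 other settings run, the adjusted p of the F-test ran from 0.00100 to 0.117. It was lowest with the component of the other genes as a covariate (r of this gene with that component was 0.45). Of the 21 fits that left out a library, it was under 0.05 without A1 (0.0400), without M1 (0.0359), without L1 (0.0292) and without L3 (0.0273). The difference of C from A passed with the covariate (adjusted p = 0.00143), without L1 (0.0439) and without L3 (0.0489), and over all settings its adjusted p reached 0.377. D against A (adjusted p = 0.00688 with the covariate, up to 0.357 over all settings) and M against C (0.00769, up to 0.372) passed with the covariate too. A fit with the replicate number as a block also passed this gene in the F-test and in these 3 contrasts, and its values are given with the other settings in the closing section.

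Hybrids were compared with each parent, and paternal lines with A, at an adjusted p under 0.05 and a log2 fold change beyond 1. No gene of the set was called in H against A (0.218% of tested genes were), H against B (0.312%), M against A (0.205%), M against C (0.552%), L against A (0.224%) or L against D (0.146%). Likewise none was called in B against A (0.677%), C against A (0.52%) or D against A (0.646%). At an unadjusted p under 0.05 with the same fold change, 6 genes were past the threshold in H against A, all higher in H, where 1.28% of tested genes were past it in either direction and 0.636% were higher in H. The counts were 3 in B against A (1.75%), 1 each in H against B (1.34%), M against A (1.04%), M against C (1.77%), C against A (1.63%) and D against A (1.59%), and 0 in L against A (1.01%) and L against D (0.774%). These shares are over all tested genes, on a scale that understates fold changes of low genes. For these contrasts, shares over the 35010 genes above 1 FPKM in every bud library were not computed.

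The 6 genes of H against A were the lipase Gh_D07G1695, the esterase/lipase Gh_A08G1898, Gh_A04G0249, MSTRG.31181, MSTRG.50737 and MSTRG.39846. The lipase, the esterase/lipase, MSTRG.31181 and MSTRG.50737 varied with the caleosin gene (r = 0.75 to 0.87), so the 6 are not independent results. The lipase averaged 76.3 FPKM ± 51.1 in H and 21.9 FPKM ± 11.1 in A (SD, n = 3), a log2 difference of 1.67 (SE 0.59, adjusted p = 0.331). MSTRG.50737 was at 12.3, 9.68 and 8.58 FPKM in A and 20.5, 54.9 and 23.6 FPKM in H, a log2 difference of 1.48 (SE 0.52, adjusted p = 0.324), and its 3 libraries of H lay above the 3 of A. For Gh_A04G0249, at 10.2, 2.64 and 4.15 FPKM in A and 13.1, 42.9 and 14.02 FPKM in H, the difference was 1.82 (SE 0.75, adjusted p = 0.429). Without H2, the highest of all 21 libraries for 5 of these genes, 1 of the 6 (MSTRG.39846) was still past the unadjusted threshold and MSTRG.2295 was newly past it, and the lipase difference was 1.16 (SE 0.61, adjusted p = 0.684). Without A1, 15 genes were past it, without A2 2 genes and without A3 3 genes.

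The median log2 difference of H from A over the 49 genes was 0.52, with 39 of 49 above 0, against a median of 0.02 and 53.7% above 0 over all tested genes. It ranged from 0.42 without H2 to 0.70 without H1. The comparisons with A share the 3 libraries of A, 2 of which (A2 and A3) lay at -78.9 and -54.4 on the component. The median difference from A was 0.23 in M (38 of 49 genes above 0, against 57.7% of all tested genes), 0.25 in L (40, 52.7%), 0.33 in B (35, 56.4%), 0.29 in C (34, 59.1%) and 0.19 in D (37, 46.2%). Leaving out a library of the groups compared moved it to between 0.07 and 0.45 in M, 0.20 and 0.37 in L, and 0.27 and 0.43 in B. In C it was 0.01 without C1 (26 of 49 above 0, with 0.06 over all genes), and up to 0.43 without C3. In D it was -0.01 without D3 (24 of 49), and up to 0.37 without D1. The 3 libraries of H lay at 60.6, 19.2 and 29.6 on the component and those of A at 87.8, -78.9 and -54.4, and the part of this difference in the medians was not tested. In H against B the median was 0.19 (31 of 49 above 0, against 45.1% of all tested genes), in M against C 0.07 (28, 47.4%) and in L against D 0.05 (27, 54.7%). With a library left out, these ran from 0.04 without H2 to 0.40 without H1 in H against B, from -0.07 without M1 (-0.04 without C3) to 0.31 without C1 in M against C, and from -0.08 without D1 to 0.21 without D3 in L against D. The libraries of the groups did not overlap for 17 of the 49 genes in H against A (13.6% of tested genes), 14 in B against A (15.3%), 10 in H against B (17.2%), 8 in C against A (13.2%), 7 in M against A (15.1%), 5 in M against C (19.1%), 3 in D against A (11.1%), 2 in L against A (9.22%) and 2 in L against D (8.8%).

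In B against A the 3 genes past the unadjusted threshold were the peroxidase Gh_D10G0605, the lipase Gh_D07G1695 and MSTRG.50737. The count of genes past it was 0 without B3, 1 without A3, 2 without A2, 4 without B1 or B2, and 8 without A1. The peroxidase was at 1.38, 1.44 and 1.93 FPKM in A and 2.81, 3.54 and 8.74 FPKM in B, and its log2 difference was 1.102 (SE 0.304, adjusted p = 0.107). Terpene synthase 02 (Gh_D05G2974), at 2.92, 1.55 and 2.41 FPKM in A and 5.72, 3.87 and 5.41 FPKM in B, had no overlap between B and A, with a log2 difference of 0.87 (SE 0.25, adjusted p = 0.133). The kinase Gh_A03G0052 was at 3.72, 2.71 and 3.54 FPKM in A, 3.37, 2.87 and 3.1 FPKM in D and 4.98, 4.78 and 4.58 FPKM in H. All libraries of H lay above all of A, a log2 difference of 0.43 (SE 0.14, adjusted p = 0.273). The kinase Gh_D03G1604 was at 1.19, 1.12 and 1.19 FPKM in D and 1.71, 3.31 and 2.08 FPKM in B, and the 3 libraries of D lay below all 3 of B. B and D were its highest and lowest genotypes by mean, and this pair was not among the contrasts tested. Other separations given above for pairs outside the contrasts have no test of the pair either.

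**Figure D4:**
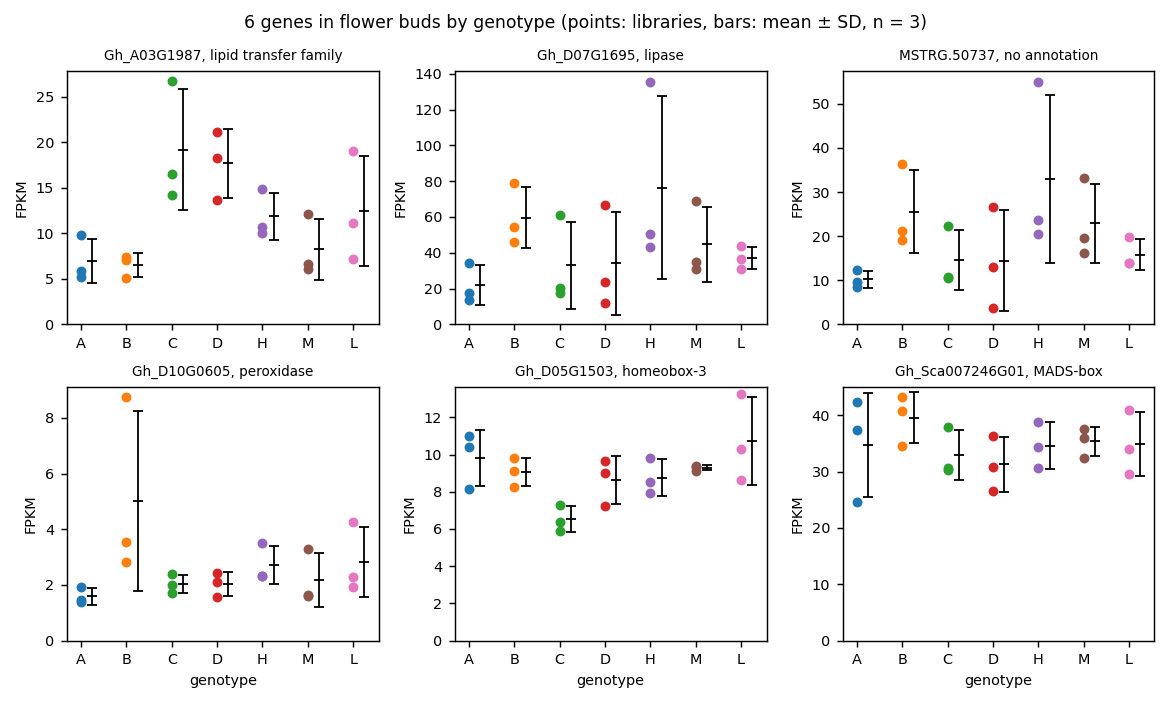
FPKM of 6 of the genes in flower buds by genotype, with 1 point per library and a bar for the mean ± SD (n = 3). For the lipid-transfer family gene the libraries of C and D lie above those of A and B, for the lipase and MSTRG.50737 those of B and H lie above those of A, and for homeobox-3 those of C are low, while the MADS-box gene overlaps among all genotypes. None of these differences passed an adjusted p under 0.05.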

How the data were processed

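The study sequenced 63 libraries from 3 tissues of 7 genotypes. The deposited FPKM values were made by the authors, who trimmed paired-end Illumina reads, aligned them with HISAT to the upland cotton genome, and assembled and quantified transcripts with StringTie and Ballgown; its build was not given in the sources used here. Reads placed at several sites were not handled separately here, so near-identical copies may share reads. FPKM keep no read depth (the low values are not whole multiples of a single read), so counting intervals could not be given, and total FPKM is no measure of depth. A further 21 FPKM columns belong to no sample and were not used. Libraries of a group were distinct: shared values of 0 aside, at most 0.00799% of values were equal between 2 libraries. None of the 49 loci matched the RefSeq gene table at hand (0 matched), and no sequences were used.

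The genes and the lists, which were found by words in the deposited descriptions, were chosen with earlier results of these data known. Genotypes were compared in flower buds with limma 3.58.1 (R 4.3.3) on log2(FPKM + 1), with trended and robust variances, in 1 model over the 63805 genes above 0.5 FPKM in at least 1 bud library. Fold changes on this scale understate those of low genes. Calls required a Benjamini-Hochberg adjusted p under 0.05 and, for contrasts, a log2 fold change beyond 1. The paper's methods name no test for these values. The fit was tested on simulated data. The replicates are the study's biological ones, made from pooled plants.

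Genes named in the text were the 10 with the highest bud median, the 10 with the smallest F-test p, up to 3 per list, those called per contrast, the 5 highest and 5 lowest by CV, and the 3 nearest inside and outside each threshold. The study's 9 candidate genes would also have been named, and none of them (0) is in the set. Copies with the same description, the genes past an unadjusted p, exine and tapetum examples, and the other genes of the set, were added after values were seen. Other values used Python 3.11.15, numpy 2.4.6 and pandas 2.3.3, and plots matplotlib 3.10.9.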

Additional observations from a re-analysis of the deposited data

How the results depend on the processing

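The number of genes moved with the thresholds. It was 77 with 0.5 FPKM in buds, 27 with 2 FPKM in buds, 21 with 0.1 FPKM in leaf and ovule, 108 with 0.5 FPKM there, and 230 when the median library of each genotype and tissue was used. The wider 3 of these lists hold all 49 genes.

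With an unadjusted p, 4 genes differed among the 7 genotypes, and the contrasts held 6 (H against A), 1 (H against B), 1 (M against A), 1 (M against C), 3 (B against A), 1 (C against A) and 1 (D against A). With the first component of the other genes as a covariate, 2 genes differed among genotypes, the lipid-transfer gene Gh_A03G1987 and the peroxidase Gh_D02G0606 (adjusted p = 0.0439), and 1 was called in each of M against C, C against A and D against A. With 1 library left out at a time, 0 to 1 genes differed among genotypes and 0 to 1 were called in C against A, each time Gh_A03G1987, and 0 in the other 8 contrasts. A pseudocount of 0.1, median-ratio scaling and no filter on low values gave 0 calls, as did fits on 2 groups alone. The causes of these changes were not tested.

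With the replicate number as a block, 1 gene (Gh_A03G1987, F-test adjusted p = 0.0107) differed among genotypes and 1 was called in each of M against C (adjusted p = 0.0410), C against A (0.0165) and D against A (0.0223). The numbers were not taken as pairs: the deviations of same-numbered libraries correlated at -0.28 to 0.51 (median 0.11), above 0.1 in 33 of 63 pairs. Correlations of each library with those of other genotypes were also averaged by replicate number. The highest average was that of the library's own number for 13 of 21 libraries. Of 378 alternative values for the 9 genes past an unadjusted p in any contrast (14 differences), 370 kept their direction and stayed unpassed, 8 passed the adjusted threshold and 0 reversed. The paper reports the number of reads per library, but FPKM do not give the reads behind each gene. How far depth limits genes under 5 FPKM was not worked out.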
